A study of Homo sapiens with 36 samples.

Results

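The mitosis genes are 36 genes of the deposited RNA-seq count table that encode mitotic cyclins, kinases, spindle checkpoint proteins, kinetochore proteins and spindle proteins. They were taken from the table by gene symbol and make up 36 of its 18932 genes. All 36 passed the filter on low counts in every fit, and the lowest count of any of them in any sample was 40 reads (SPC24).

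The RNA came from HepG2, a human hepatoma cell line, and the study asked how docosahexaenoic acid (DHA), alone or with a second compound, changes its transcriptome. Cells in serum-free medium with 0.5% bovine serum albumin were left as controls with matching ethanol and dimethyl sulfoxide (Ctrl) or received 50 µM DHA, 70 µM propionate (PRO), 20 µM protocatechuic acid (PCA), DHA+PRO or DHA+PCA, for 6 or 24 h. This gave 12 groups of 3 samples, 36 in all. Per the study's methods, each sample pooled RNA from the replicates of 1 of 3 independent cultures of this single line, and treatment began 1 day after seeding. The 24 h cells had therefore been plated, and kept without serum, for longer than the 6 h cells.

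A cell enters mitosis when CDK1 bound to a B-type cyclin is switched on by CDC25 phosphatases. Aurora and Polo-like kinases then help to build the spindle, kinetochores attach chromosomes to microtubules, and the spindle checkpoint holds back the anaphase-promoting complex until every chromosome is attached. Messenger RNAs of these genes typically peak in late G2 and mitosis, and many of their promoters carry a CHR element (cell cycle genes homology region) and CCAAT boxes, bound by the MuvB-based complexes and by NF-Y. In a growing cell line such as HepG2, their level in a bulk sample is widely used as a sign of how many cells are dividing.

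To show these promoter elements, stretches from 150 bases before to 20 bases after the RefSeq start site (GRCh38.p14) are given for 6 members. CENPA, CCNB2, CDC20 and PLK1 all fell between 6 and 24 h, whereas SPC25 and SPC24 did not pass the test. Capitals mark the CHR (TTTGAA or TTCGAA) and the CCAAT box (CCAAT, or ATTGG on the other strand).
CENPA (chr2:26785906-26786075, + strand): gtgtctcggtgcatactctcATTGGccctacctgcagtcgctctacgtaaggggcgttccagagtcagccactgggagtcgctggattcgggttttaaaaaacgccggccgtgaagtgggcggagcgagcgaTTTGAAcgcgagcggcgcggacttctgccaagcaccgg
CCNB2 (chr15:59104996-59105165, + strand): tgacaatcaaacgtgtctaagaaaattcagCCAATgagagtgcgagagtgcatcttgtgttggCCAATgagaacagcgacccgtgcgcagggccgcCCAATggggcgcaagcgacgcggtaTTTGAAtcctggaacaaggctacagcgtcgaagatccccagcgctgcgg
CDC20 (chr1:43358831-43359000, + strand): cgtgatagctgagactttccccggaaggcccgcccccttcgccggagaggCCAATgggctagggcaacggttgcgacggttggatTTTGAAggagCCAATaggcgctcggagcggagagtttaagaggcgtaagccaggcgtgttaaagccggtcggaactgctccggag
PLK1 (chr16:23678739-23678908, + strand): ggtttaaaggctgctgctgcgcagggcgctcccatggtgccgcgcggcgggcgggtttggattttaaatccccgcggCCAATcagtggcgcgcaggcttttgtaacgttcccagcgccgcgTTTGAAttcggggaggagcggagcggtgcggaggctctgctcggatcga
SPC25 (chr2:168890411-168890580, - strand): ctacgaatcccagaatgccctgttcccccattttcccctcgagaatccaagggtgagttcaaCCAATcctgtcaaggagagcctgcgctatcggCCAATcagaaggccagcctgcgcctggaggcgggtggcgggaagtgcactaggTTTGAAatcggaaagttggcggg
SPC24 (chr19:11155763-11155932, - strand): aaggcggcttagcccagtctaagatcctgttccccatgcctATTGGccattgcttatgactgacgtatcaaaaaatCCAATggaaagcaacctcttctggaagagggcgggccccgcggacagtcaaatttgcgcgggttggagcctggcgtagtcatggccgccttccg
In CENPA the CHR began 18 bases before the start site. In CCNB2 and PLK1 it began 29 bases before it, in CDC20 65 bases and in SPC25 3 bases. The SPC24 stretch held 2 CCAAT boxes and no CHR.

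Over the whole RefSeq windows, from 250 bases before to 50 after the start, 30 of the 36 mitosis genes had a sequence. A CHR, searched on both strands, was present in 22 of the 30 (73.3%), against 17.3% of all genes in the table with a window. A CCAAT box was present in 25 (83.3%, against 42.3% of all genes) and both motifs in 19 (63.3%, against 9.03%). A gene with several windows counted for a motif when any of them held it, so both motifs may lie in different windows. The E2F motif TTCCCGC, on either strand, was present in 4 (13.3%, against 10.7%). Of the 96 other mitosis genes described further on, 83 had a window. A CHR was present in 49 of these 83 genes (59.0%), the E2F motif in 24.1% and both CHR and CCAAT box in 37.3%. Of the DNA replication genes with a window, 15 of 33 (45.5%) held the E2F motif and 2 (6.06%) a CHR. Among the 18 members with the larger fall over culture time, 11 of 15 genes with a window held a CHR, and among the 18 with the smaller fall 11 of 15. These matches describe letters in a window, not binding.

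Depth ranged from 4659744 to 42326734 counted reads per sample (median 7034006.5). The deepest library, DHA+PRO 24 h replicate 2, held 6.22 times the median of the other 24 h libraries. All 630 pairs of samples differed by more than sampling noise (lowest chi-square per degree of freedom 1.89). The liver markers ALB, AFP and APOA1 had median levels of 11616, 4069 and 3521 RPKM (reads per kilobase of counted length, scaled to library size). Of 5 leukocyte markers, PTPRC and CD3E had at most 2 reads in any sample, whereas LYZ had a median of 912 RPKM and CD68 of 27.2 RPKM. In the early series of library numbers, 11 of the sequencing indexes were used for both a 6 h and a 24 h library, so the libraries of such a pair cannot have shared a lane. The headers of the late series carry no index, and lanes are not given in the sources used here.

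On a scale per length, the mitosis genes were well expressed. Their mean level over the 36 samples ranged from 11.3 RPKM for CENPE, a kinetochore motor, to 182 RPKM for PLK1 (Polo-like kinase 1), with a median of 43.3 RPKM. Of the members, 8 had a mean above 100 RPKM: PLK1, TOP2A (topoisomerase II alpha), UBE2C, AURKA, CCNB1, PTTG1, TPX2 and BIRC5.

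The summed level of the mitosis genes separated the 2 time points completely. At 6 h the 36 genes together took 6164 to 7580 CPM (counts scaled to library size with TMM factors) in the 18 samples, with a median of 7000. At 24 h they took 4104 to 5440 CPM, with a median of 4614. Without DHA (Ctrl, PRO and PCA) the sum was 6889 ± 510 CPM at 6 h (SD, n = 9 samples from 3 cultures) and 4643 ± 320 CPM at 24 h. With DHA (DHA, DHA+PRO and DHA+PCA) it was 6925 ± 435 and 4653 ± 357 CPM. Every 24 h sample lay below every 6 h sample, whatever the treatment. In a bulk sample, fewer dividing cells and less of these RNAs per cell cannot be told apart.

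**Figure D1:**
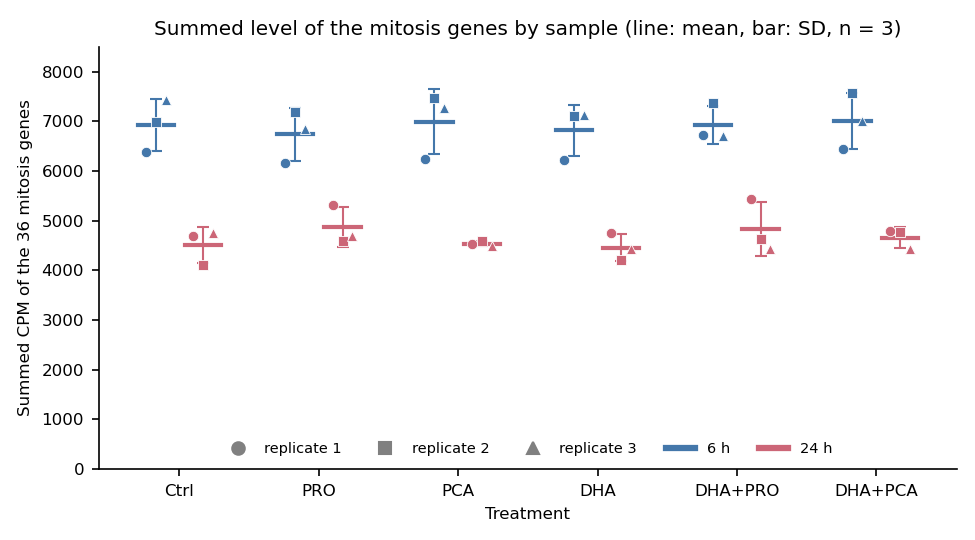
Summed CPM of the 36 mitosis genes (y axis) in each of the 36 samples by treatment (x axis), blue at 6 h and red at 24 h; lines are means, bars SD of 3 samples and symbols replicate numbers. The 6 h samples sit between 6164 and 7580 CPM and the 24 h samples between 4104 and 5440 CPM, with no overlap.

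Culture time was tested first, as 24 h against 6 h in a joint fit of all 36 samples (edgeR quasi-likelihood test, Benjamini-Hochberg adjustment over 12046 genes). Each side of a comparison held 9 samples from 3 cultures, which this fit took as independent. A gene was called at an adjusted p of at most 0.05 with an average log2 CPM above 0. Without DHA, 34 of the 36 mitosis genes were called and all 34 were lower at 24 h. Over all genes tested, 24.1% were called lower and 24.3% higher. The median log2 fold change of the members was −0.58, a change of −33.0%, against −0.0073 over all genes. Called members changed by −12.5% (AURKB) to −48.5% (CENPA), and 19 members fell by at least 0.5 on the log2 scale. For 21 members every 24 h sample lay below every 6 h sample; this held for 4.83% of all genes.

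With DHA the same 34 genes were called, again all lower, where 23% of all genes were called lower and 22.9% higher. Their median log2 fold change was −0.53 (−30.9%), and 19 members did not overlap between the times, against 5.13% of all genes. For 17 members the times were without overlap in both sets of treatments. SPC24 and SPC25 were called in neither set.

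**Figure D2:**
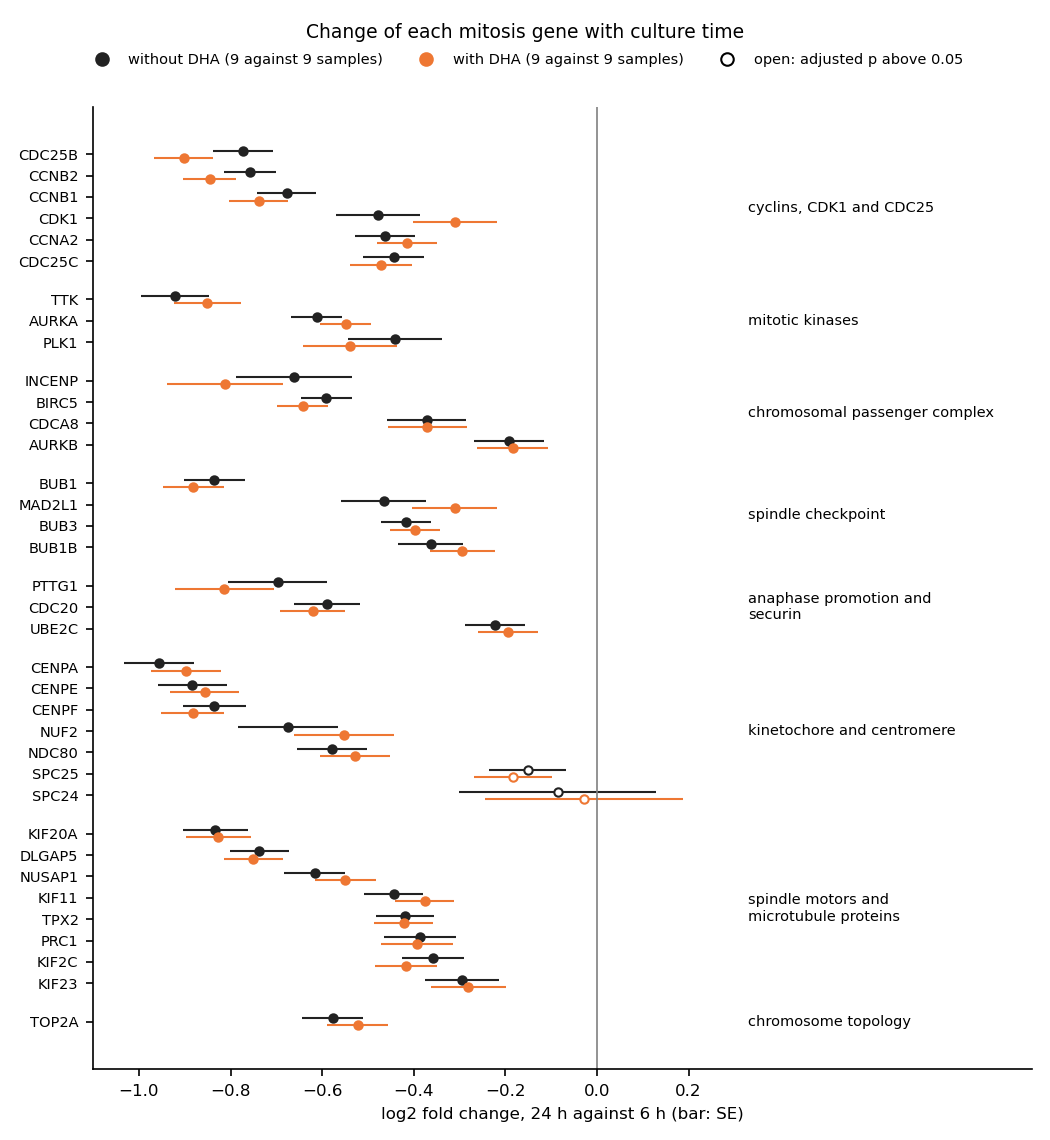
log2 fold change of each mitosis gene at 24 h against 6 h (x axis; bars are SE), by role, without DHA in black and with DHA in orange, 9 against 9 samples each. All points lie below 0; the open points, SPC24 and SPC25, have adjusted p above 0.05.

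All 6 genes of the cyclin, CDK1 and CDC25 group fell, with log2 fold changes without DHA from −0.77 (CDC25B) to −0.44 (CDC25C). CCNB2, a B-type cyclin, had the smallest p of all members in both sets. Its level without DHA ran from 132 to 165 CPM at 6 h (median 150) and from 75.4 to 103 CPM at 24 h (median 87.2), with no overlap. This was a log2 fold change of −0.76 ± 0.057 (SE, adjusted p = 5.9e-13) without DHA and of −0.85 ± 0.058 (adjusted p = 4.42e-14) with DHA.

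CCNB1 (chr5:68462837-68474070, hg19), the main mitotic cyclin, had 306 to 367 CPM at 6 h (median 334) and 167 to 269 CPM at 24 h (median 210) without DHA. The times did not overlap, and the log2 fold change was −0.68 ± 0.064 (adjusted p = 1.28e-10). CDK1 itself, the mitotic kinase, ran from 128 to 186 CPM at 6 h (median 147) and from 94.8 to 161 CPM at 24 h (median 104). Those ranges overlapped through 1 PRO 24 h sample at 161 CPM. The log2 fold change of CDK1 was −0.48 ± 0.092 (adjusted p = 6.06e-05) without DHA and −0.31 ± 0.092 (adjusted p = 0.00597) with DHA. CDC25B, the phosphatase that starts CDK1 activation, changed by −0.90 ± 0.065 with DHA (adjusted p = 1.73e-13), from a range of 140 to 200 CPM at 6 h to 81.9 to 98.5 CPM at 24 h.

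The 3 mitotic kinases outside the passenger complex fell too. AURKA (Aurora A), which acts at spindle poles, went from 310 to 388 CPM (median 328) at 6 h to 198 to 238 CPM (median 218) at 24 h without DHA, with no overlap (log2 fold change −0.61 ± 0.056, adjusted p = 5e-11). TTK (the checkpoint kinase MPS1) lost the most of the 3, from a median of 69.0 CPM to 34.5 CPM (−0.92 ± 0.073, adjusted p = 1.9e-12); its lowest 6 h sample had 56.2 CPM and its highest 24 h sample 45.1 CPM. PLK1 varied more within a time point. It ran from 322 to 543 CPM (median 469) at 6 h and from 285 to 370 CPM (median 331) at 24 h, and its ranges overlapped (−0.44 ± 0.10, adjusted p = 0.000612).

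In the chromosomal passenger complex, which corrects faulty attachments, 4 of 4 genes fell by different amounts. The scaffold INCENP changed by −0.66 on the log2 scale (95% confidence interval −0.92 to −0.41) and BIRC5 (survivin) by −0.59. CDCA8 (borealin) changed by −0.37. The kinase AURKB (Aurora B) changed least, by −0.19 (−0.35 to −0.036; adjusted p = 0.0378). It had 86.1 to 103 CPM at 6 h (median 89.8) and 61.4 to 96.0 CPM at 24 h (median 80.5), so the ranges overlapped. The AURKB calls lay near the limit of 0.05. Without DHA its adjusted p ranged from 0.0181 to 0.101 when each of the 36 samples was left out in turn and lay above 0.05 in 9 of those fits. With DHA the main adjusted p was 0.0492 (edgeR), the range was 0.0136 to 0.145, and 24 of the 36 fits lost the call. Some of these fits left out a sample without DHA, which is no part of that comparison.

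All 4 spindle checkpoint genes and all 3 genes of anaphase onset were called lower. BUB1, a checkpoint kinase, had 159 to 213 CPM at 6 h (median 190) and 95.0 to 124 CPM at 24 h (median 102), with no overlap (−0.84 ± 0.067, adjusted p = 2.43e-12), and its log2 fold change with DHA was −0.88 ± 0.067. MAD2L1 (MAD2), the inhibitor of the anaphase-promoting complex, had 66.4 to 97.9 CPM (median 86.3) and 48.8 to 87.3 CPM (median 60.4), with overlapping ranges (−0.47 ± 0.093, adjusted p = 9.84e-05). BUB3 and BUB1B changed by −0.42 and −0.36. CDC20, the activator of the anaphase-promoting complex, fell from a range of 114 to 162 CPM (median 146) to 83.5 to 104 CPM (median 96.2), with no overlap (−0.59 ± 0.072, adjusted p = 2.75e-08). PTTG1 (securin) fell from 105 to 131 CPM (median 110) to 53.1 to 91.8 CPM (median 68.7), also without overlap (−0.70 ± 0.11, adjusted p = 2.12e-06). With DHA, 1 DHA 6 h sample stood above the rest for PTTG1, at 179 CPM. UBE2C, the ubiquitin-conjugating enzyme of the complex, changed by −0.22. Reads of PTTG1 may be shared with close copies such as PTTG2, so its level is uncertain.

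Of the 7 kinetochore and centromere genes, 5 were called lower in each set of treatments and 2 were not called. CENPA, the histone H3 variant that marks centromeres, had 54.1 to 72.6 CPM at 6 h (median 62.8) and 26.01 to 42.7 CPM at 24 h (median 32.1), with no overlap. Its log2 fold change was −0.96 ± 0.076 (adjusted p = 2.03e-12) without DHA and −0.90 ± 0.076 (adjusted p = 1.03e-11) with DHA. CENPF, a large protein of the outer kinetochore, had 403 to 481 CPM at 6 h (median 444) and 213 to 294 CPM at 24 h (median 234), with no overlap (−0.84 ± 0.068, adjusted p = 3.31e-12). With DHA, CENPF changed by −0.88 as well. CENPE, the kinetochore motor, changed by −0.88 without DHA.

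The NDC80 complex, whose 4 subunits form the main microtubule attachment of the kinetochore, held 2 called members and the 2 that were not called; a difference between subunits was not tested. NDC80 (HEC1) had 53.8 to 66.7 CPM at 6 h (median 60.7) and 31.4 to 48.3 CPM at 24 h (median 40.8), with no overlap (−0.58 ± 0.076, adjusted p = 1.3e-07). Its partner NUF2 changed by −0.67 ± 0.11. SPC25 (chr2:169727401-169746944, hg19) had 28.7 to 37.2 CPM at 6 h (median 33.3) and 23.2 to 36.9 CPM at 24 h (median 29.6). Its log2 fold change was −0.15 (95% confidence interval −0.32 to 0.019; adjusted p = 0.136) without DHA and −0.18 (−0.35 to −0.012; adjusted p = 0.0742) with DHA. With the series of library numbers as a factor, SPC25 was called with DHA (adjusted p = 0.0354).

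SPC24 (chr19:11257831-11266484, hg19) had the widest spread. It ran from 5.36 to 13.9 CPM at 6 h (median 12.0) and from 5.97 to 15.6 CPM at 24 h (median 10.3) without DHA, a log2 fold change of −0.086 (−0.52 to 0.35; adjusted p = 0.766). The 6 samples of replicate 1 at 6 h had 4.53 to 7.77 CPM, whereas the 12 samples of replicates 2 and 3 had 11.8 to 14.9 CPM. Within replicate numbers, its log2 difference between times was 0.44 in replicate 1, −0.36 in replicate 2 and −0.15 in replicate 3. SPC24 was also the member with the fewest reads.

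All 8 spindle motors and microtubule proteins fell. KIF20A and DLGAP5 fell most (−0.83 and −0.74) and KIF23 least (−0.29). KIF11 (Eg5), which pushes spindle poles apart, had 138 to 187 CPM at 6 h (median 160) and 99.6 to 138 CPM at 24 h (median 116), just without overlap (−0.44 ± 0.065, adjusted p = 9.21e-07). TPX2, which recruits Aurora A to microtubules, had 425 to 559 CPM (median 522) and 328 to 406 CPM (median 366), with no overlap (−0.42 ± 0.064, adjusted p = 1.96e-06). TOP2A, which untangles sister chromatids and took more reads than any other member, went from 799 to 1144 CPM (median 961) to 586 to 772 CPM (median 660), with no overlap (−0.58 ± 0.067, adjusted p = 1.04e-08).

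The fall was present in every treatment. The median log2 difference of the members between the 24 h and 6 h group means was −0.60 in Ctrl, −0.59 in DHA, −0.46 in PRO, −0.61 in PCA, −0.47 in DHA+PRO and −0.55 in DHA+PCA. Matching samples by treatment and replicate number gave 18 pairs, whose medians ranged from −0.84 to −0.24, with 27 to 36 members lower in each pair. Of the members, 20 were lower in all 18 pairs and the other 16 in 12 to 17 pairs. In a single pair, 48.2% to 56.0% of all genes were lower. The share of all genes lower in all 18 pairs was not computed, and the pairs came from 3 cultures. By replicate number the median was −0.34 in replicate 1, −0.69 in replicate 2 and −0.61 in replicate 3. At 6 h the summed level was 6164 to 6723 CPM in replicate 1 and 6701 to 7580 CPM in the others. By series of library numbers the median was −0.52 in the early and −0.62 in the late series. The late series held replicate 3 of every group and DHA+PRO 6 h replicate 2, so this split nearly repeats the one by replicate number.

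**Figure D3:**
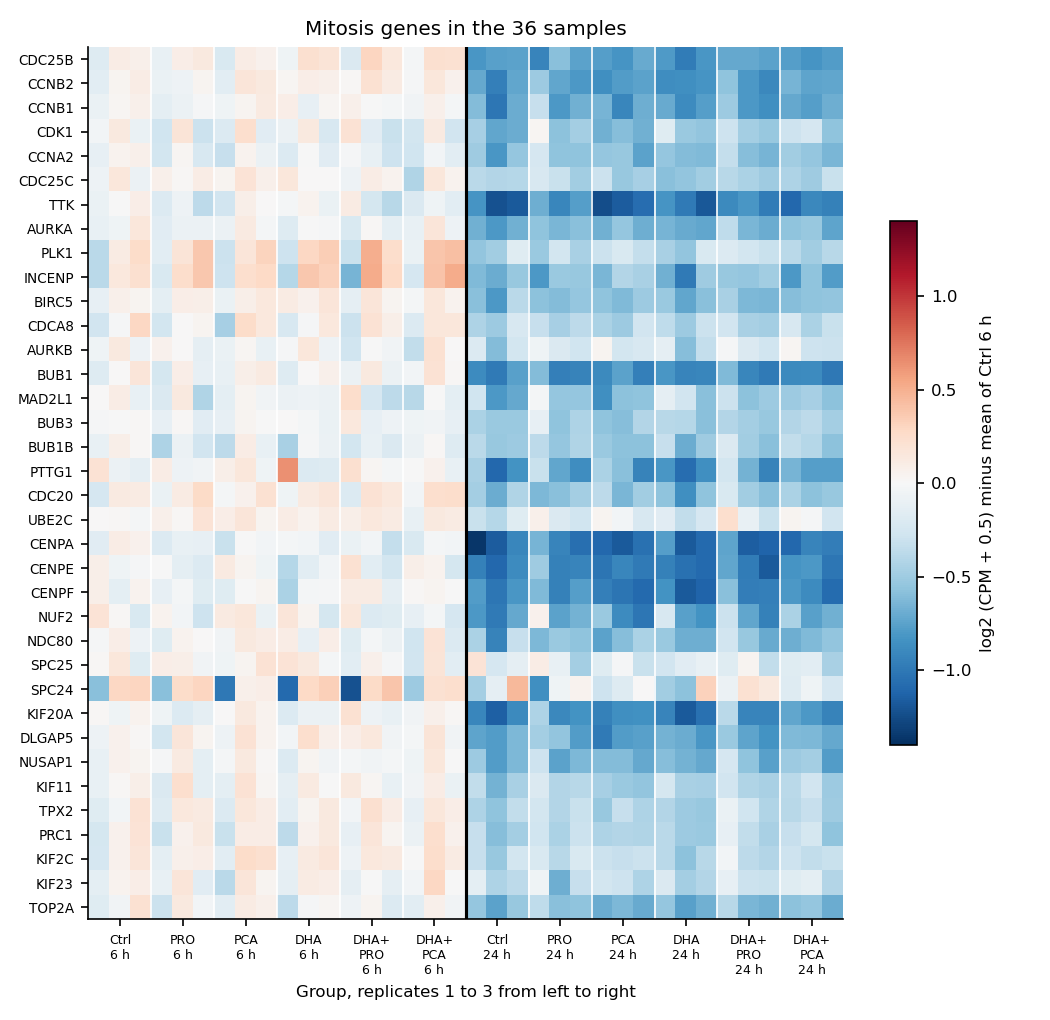
log2 (CPM + 0.5) of each mitosis gene (rows) in each sample (columns, replicates 1 to 3 within each group) minus its mean in Ctrl 6 h; red is higher and blue lower. The 24 h columns are blue for most genes under every treatment, while SPC24 is low in replicate 1 at 6 h.

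Changes over culture time with and without DHA were compared directly. The difference of the pooled DHA effect between 24 and 6 h had a median log2 value of 0.0072 over the members, and 0 of them passed an unadjusted p of 0.05 (edgeR). No gene of the 12046 was called in that comparison (0%).

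Treatments were then compared with Ctrl at each time, fitting the 18 samples of a time together. No mitosis gene was called for any treatment at either time (edgeR quasi-likelihood test). At 24 h, calls over all genes were also few. DHA reached 0.193% of them, DHA+PRO 0.395% and DHA+PCA 0.286%, while PRO and PCA alone reached 0%. At 6 h DHA and both combinations reached 0.0168% each, and PRO and PCA again 0%. In this fit, which holds no replicate block, 3 members reached an unadjusted p under 0.05 with PRO at 24 h and 0 with each of the other treatments at either time. The DESeq2 Wald test called 0 members in each of these comparisons as well.

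On the log2 scale, the median fold change of the members at 24 h was −0.016 with DHA, 0.0042 with PCA and 0.11 with PRO. It was 0.090 with DHA+PRO and 0.068 with DHA+PCA. All 5 share the same 3 Ctrl samples. With PRO 28 of 36 members lay above 0 and with DHA+PRO 33 of 36, where 48.1% and 49.9% of all genes did. Replicates differed in this. Within replicates 1, 2 and 3 the median difference from Ctrl was 0.15, 0.17 and −0.011 for PRO and 0.18, 0.20 and −0.13 for DHA+PRO. Without PRO 24 h replicate 1 the PRO median was 0.036, and without DHA+PRO 24 h replicate 1 the DHA+PRO median was −0.017. At 6 h the medians were −0.0065 with DHA, 0.029 with PCA, −0.041 with PRO, −0.014 with DHA+PRO and −0.014 with DHA+PCA. There 10 of 36 members lay above 0 with PRO and 17 of 36 with DHA+PRO, where 47.8% and 48.3% of all genes did.

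The 3 members reached by PRO were CDK1, TTK and NUF2, named here after their values were seen. CDK1 had 114, 94.8 and 97.1 CPM in Ctrl 24 h and 161, 106 and 113 CPM in PRO 24 h. TTK had 40.6, 30.8 and 31.9 CPM in Ctrl and 45.1, 38.2 and 42.4 CPM in PRO. NUF2 had 38.4, 33.7 and 40.9 CPM in Ctrl and 70.2, 39.9 and 42.4 CPM in PRO. In all 3 the groups overlapped. Their log2 fold changes were 0.31, 0.28 and 0.43, and the lowest adjusted p of any member was 0.799 (edgeR). SPC24 moved the other way by the most (log2 fold change −0.29, adjusted p = 0.89).

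For CCNB1 at 24 h, the 3 Ctrl samples had 221, 167 and 208 CPM and the DHA samples 206, 183 and 197 CPM. The PRO samples had 269, 193 and 211 CPM and the PCA samples 215, 179 and 210 CPM. DHA+PRO gave 237, 192 and 185 CPM, and DHA+PCA 206, 197 and 210 CPM. In each treatment CCNB1 overlapped with Ctrl. CENPA averaged 30.5 ± 4.9 CPM in Ctrl 24 h (SD, n = 3), 33.5 ± 5.1 in DHA, 36.7 ± 5.4 in PRO and 31.1 ± 1.4 in PCA. TOP2A averaged 649 ± 54 CPM in Ctrl 24 h, 626 ± 50 in DHA, 700 ± 62 in PRO and 617 ± 17 in PCA.

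To use more samples, DHA was also tested as the average of its 3 effects: DHA against Ctrl, DHA+PRO against PRO and DHA+PCA against PCA. At 24 h the median of the members was 0.0084 on the log2 scale and 0 were called, where 1.23% of all genes were. Confidence limits of the members (95%) lay between −0.27 (PTTG1) and 0.37 (SPC24). At 6 h the median was −0.0059 and 0 members were called, where 0.202% of all genes were; the limits lay between −0.52 and 0.51, both from SPC24. In these fits without a replicate block, 0 members had an unadjusted p under 0.05 at either time (edgeR). A DHA effect of −0.58, the median change over culture time without DHA, lay outside the limits of every member at 24 h, although smaller effects remained within them. The members' own changes over culture time ran from −0.96 to −0.086, so this median does not stand for each member. The limits measure spread among samples, not among cultures.

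Adding a second compound to DHA was tested against DHA alone at 24 h. No member was called for DHA+PRO (median 0.088, 29 of 36 above 0) or for DHA+PCA (median 0.068, 30 of 36 above 0), and 0% of all genes were called in either comparison. Of all genes, 48.0% and 47.7% lay above 0. Without DHA+PRO 24 h replicate 1 the first median was 0.0063, and without DHA 24 h replicate 2 the second was 0.019. In this fit without a replicate block, 2 members reached an unadjusted p under 0.05 with DHA+PRO and 0 with DHA+PCA. These were KIF20A, with 100, 84.0 and 92.1 CPM in DHA and 147, 100 and 100 CPM in DHA+PRO, and TPX2, with 365, 342 and 336 CPM in DHA and 455, 400 and 363 CPM in DHA+PRO. Both were named after their values were seen, and both had an adjusted p of 0.999 (edgeR).

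**Figure D4:**
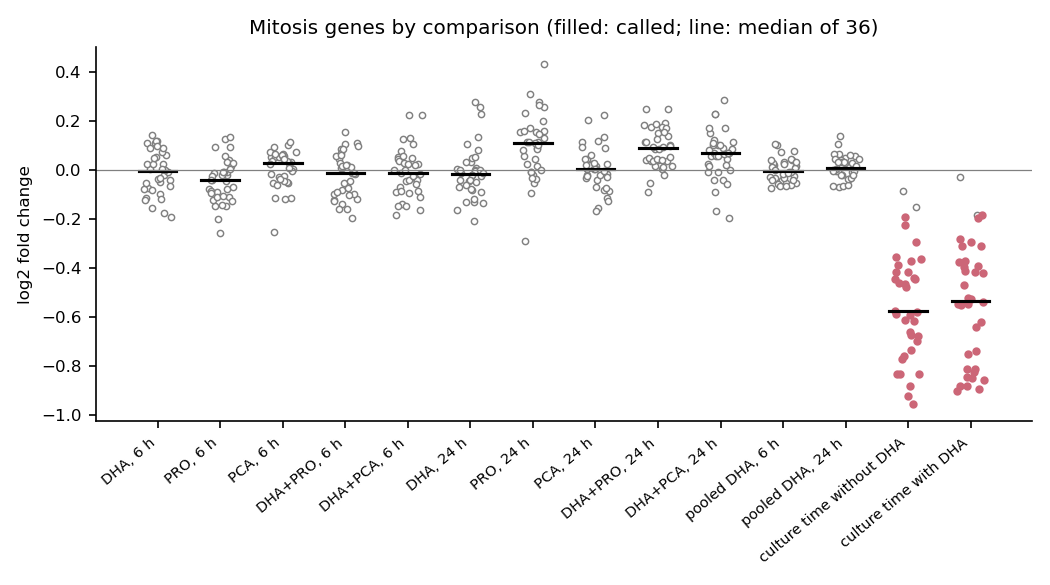
log2 fold change (y axis) of the 36 mitosis genes in each comparison (x axis); treatments are against Ctrl, filled points are called and lines are medians. All treatment points are open with medians between −0.041 and 0.11, whereas 34 of 36 points are filled and below 0 in each culture time comparison.

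Other genes of the cell cycle were examined over the same culture time, to see where the mitosis genes stood. Of 96 further mitosis genes, 50 fell and 6 rose without DHA (median log2 fold change −0.23), where 24.1% of all genes were called lower and 24.3% higher. With DHA 46 fell and 6 rose (median −0.19). Their members with the smallest p were NEK2, a centrosome kinase (−1.09 ± 0.080, adjusted p = 2.31e-13), ECT2, a cytokinesis exchange factor (−0.85 ± 0.081), and the chromokinesin KIF4A (−0.67 ± 0.065). By role, 21 of 25 other motor, spindle and cytokinesis genes fell, as did 5 of 8 condensin genes and 5 of 8 cohesin genes. Among the subunits and partners of the anaphase-promoting complex 4 of 16 fell and 1 rose, a share of falls near that of all genes.

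Of 38 genes of DNA replication, 12 rose and 7 fell without DHA (median 0.13), where 24.3% of all genes rose and 24.1% fell. With DHA 17 rose and 3 fell (median 0.17), where 22.9% of all genes rose and 23% fell. RRM2, a ribonucleotide reductase subunit, rose by 0.62 ± 0.058 on the log2 scale (adjusted p = 7.01e-11) and CDC6, which licenses origins, by 0.52 ± 0.093. RFC1, the large clamp loader subunit, changed by −0.35 ± 0.051.

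Of 23 transcription regulators of the cell cycle, 7 rose and 6 fell without DHA, near the shares of all genes. E2F1 rose by 1.02 ± 0.11 (adjusted p = 2.98e-09), E2F8 by 0.82 ± 0.10 and NFYA, a CCAAT-box binding subunit, by 0.33 ± 0.057. Of the 18 measured genes of G1 and quiescence, 4 rose and 6 fell without DHA, where 24.3% of all genes rose and 24.1% fell. CCNE1 (cyclin E1) rose by 0.98 ± 0.082 (adjusted p = 7.68e-12) and the CDK inhibitor CDKN1A (p21) by 0.34 ± 0.060, and CCNG1 (cyclin G1) changed by −0.54 ± 0.10. Of these 4 lists, 0 genes were called for the pooled DHA effect at 6 or 24 h. Of all genes, only 0.202% were called at 6 h and 1.23% at 24 h, so a count of 0 is near those shares.

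**Figure D5:**
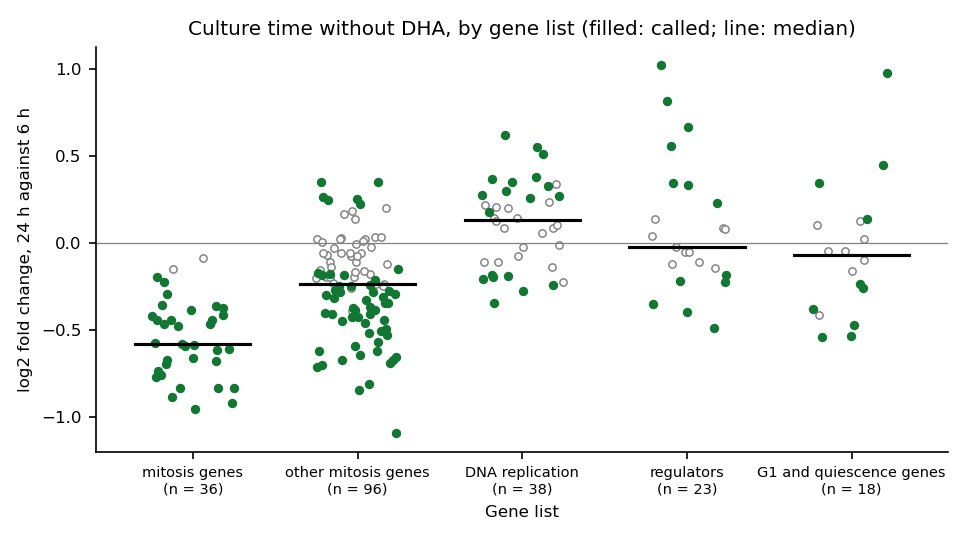
log2 fold change at 24 h against 6 h without DHA (y axis) of each tested gene in 5 lists (x axis); filled points are called and lines are medians. Mitosis genes lie lowest (median −0.58), the other mitosis genes at −0.23 and DNA replication genes at 0.13.

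Among themselves, the mitosis genes varied together. The median Pearson correlation of log2 CPM over all 630 pairs of members was 0.83 across the 36 samples, which share the split by culture time, and 0.44 after removing group means. Each member was also compared with the mean of the other 35. BUB1 followed it most closely (r = 0.98), then CCNB2, AURKA, TOP2A and NUSAP1, and SPC24 least (r = 0.12), with SPC25 (r = 0.57) and AURKB (r = 0.69) next. Of 10591 other genes ranked by their correlation with the mean z-score of the members, the 10 closest were KPNA2 (an importin alpha, r = 0.97), DDX46, KNSTRN, PRR11, ARL6IP1, NEK2, ASPM, NR1H4 (the bile acid receptor FXR), KIF4A and PSME4 (r = 0.94). After removing group means, r for these 10 genes ranged from 0.39 (PSME4) to 0.79 (ASPM). Samples in these correlations share their library, depth and culture, and no test was run.

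Some readings have limits from neighbouring genes and other cell markers. The library kit does not mark strand. CCNA2, CDC25C, PLK1 and KIF20A overlap a gene on the other strand (EXOSC9, FAM53C, ERN2 and CDC23), while BUB1B overlaps PAK6 on the same strand. The overlaps span 578 bases in CCNA2, 821 in CDC25C, 63 in PLK1, 68 in KIF20A and 3709 in BUB1B. These neighbours averaged 42.1 CPM (EXOSC9), 88.5 CPM (FAM53C), 5.86 CPM (ERN2), 64.2 CPM (CDC23) and 0.239 CPM (PAK6). CDC25C itself averaged 39.4 CPM, less than FAM53C. The summed level of 5 leukocyte markers was 528 to 828 RPKM at 6 h and 1040 to 1711 RPKM at 24 h. LYZ supplied most of it. The proliferation markers MKI67 and PCNA together had 360 to 456 RPKM at 6 h and 294 to 406 RPKM at 24 h. PCNA supplied most of this sum, with a median over all samples of 345 RPKM against 34.6 RPKM for MKI67. MKI67 alone ran from 355 to 697 CPM at 6 h and from 294 to 434 CPM at 24 h. Those ranges overlapped through DHA 6 h replicate 1 at 355 CPM, and every other 6 h sample had at least 484 CPM. The part of the overlapping genes and of the leukocyte markers in the fall of the mitosis genes was not tested.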

How the data were processed

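Poly(A)-enriched RNA of 36 HepG2 samples (12 groups of 3) was sequenced with a kit that does not mark strand. The authors aligned reads with STAR to hg19 and counted them per RefSeq gene (iRNA-seq). Deposited values were raw counts, 1 row a gene, with gene position and counted length as other columns. RPKM was computed here as TMM-scaled CPM per kilobase of that length. Tests used edgeR 4.0.16 in R 4.3.3 (filterByExpr, TMM, quasi-likelihood F test) with Benjamini-Hochberg adjustment over all genes tested, 11893 at 24 h, 11872 at 6 h and 12046 in the joint fit. Genes were called when the adjusted p was at most 0.05 and log2 CPM averaged above 0. Scripts were tested on simulated data. Members and gene lists were chosen with earlier results of these data known. Values by sample or group are given for 15 members fixed for their roles and for the 5 called members with the smallest p in each comparison; from other lists at most 3 called genes with the smallest p are named, and up to 3 members that moved against the median. Alternatives were DESeq2 1.42.0 (size factors, Wald test), no filter, other limits on expression, replicate number or series of library numbers as a factor, only the groups compared, thinning of the deepest library and leaving out each sample; GC-content offsets were added after seeing the data. Motif windows came from RefSeq (GRCh38.p14), and no window was used for AURKA, TTK, BIRC5, BUB3, UBE2C and TPX2. Replicates were separate cultures of 1 line. Each side of the culture time and pooled DHA comparisons held 9 samples from 3 cultures. The main fit took these as independent, so their SE and p-values measure spread among samples, not among cultures. All p-values describe this line only.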

Additional observations from a re-analysis of the deposited data

How the results depend on the processing

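Without DHA, 34 mitosis genes were called lower over culture time under each of the 11 alternatives, and 33 to 35 when each sample was left out. Their median log2 fold change ranged from −0.588 to −0.484 over the alternatives and from −0.608 to −0.542 with samples left out. With DHA the counts of called members were 33 to 35 in both cases. Over all genes, called in either direction, the alternatives gave 5318 to 6592 without DHA and 5048 to 6620 with DHA. Fits with samples left out gave 5331 to 6148 and 5111 to 5644. The main fit called 5831 and 5538 of 12046 genes. Among the 11 alternatives, AURKB lost its call with DHA only where the fit was restricted to the groups compared (adjusted p = 0.0686, edgeR). No called member changed sign.

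Same-numbered samples deviated together in part. The correlation of their residuals averaged 0.153 at 24 h (34 of 45 pairs over 0.1), 0.256 at 6 h (36 of 45) and 0.105 between times (59 of 108). For samples of different numbers it averaged −0.0757, −0.125 and −0.0518. The main fit held no replicate block and so left this partial pairing out. With the replicate number as a block, 34 members were called over culture time without DHA and 35 with DHA (SPC25 added, adjusted p = 0.0455), and 0 in each treatment comparison. Genes called over the whole table rose under the block from 23 to 77 for DHA at 24 h, from 47 to 135 for DHA+PRO, from 34 to 130 for DHA+PCA, and from 146 to 367 for pooled DHA at 24 h and from 24 to 64 at 6 h. At 6 h DHA rose from 2 to 18, DHA+PRO from 2 to 13 and DHA+PCA from 2 to 11. Members at an unadjusted p under 0.05 under the block at 24 h numbered 4 for PRO, 4 for DHA+PRO, 3 for DHA, 2 for PCA, 2 for DHA+PCA, 1 for pooled DHA, 6 for DHA+PRO against DHA and 1 for DHA+PCA against DHA, and at most 2 in each comparison at 6 h.

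With the GC-content offset, the median for DHA against Ctrl at 6 h was 0.025, and for the pooled DHA effect at 24 minus 6 h −0.023. With the offset and the block these were 0.031 and −0.022, and 1 member was called for DHA+PCA against Ctrl at 24 h (CDK1, adjusted p = 0.0458) and 1 for DHA+PRO against DHA at 24 h (CENPF, adjusted p = 0.0468). Members at an unadjusted p under 0.05 then numbered 10 for DHA+PRO against Ctrl, 13 for DHA+PRO against DHA and 5 for DHA+PCA against DHA at 24 h. That fit called 197 genes of the whole table for DHA and 773 for pooled DHA at 24 h. The cause was not tested. Leaving out single samples moved the median from −0.056 to 0.033 for DHA at 6 h, from −0.043 to 0.086 for PCA at 6 h, from −0.093 to 0.0058 for PRO at 6 h and from −0.025 to 0.030 for the pooled DHA effect at 24 minus 6 h. At 24 h it moved from −0.077 to 0.024 for DHA, from 0.036 to 0.154 for PRO, from −0.059 to 0.052 for PCA, from −0.017 to 0.134 for DHA+PRO and from 0.0046 to 0.111 for DHA+PCA, and against DHA from 0.0063 to 0.151 for DHA+PRO and from 0.019 to 0.119 for DHA+PCA. Depth limits SPC24, with as few as 40 reads, and intervals cover these 3 cultures only. Restricting a fit to the groups compared does not apply to pooled DHA, which uses all groups.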
